A study of Canis lupus familiaris with 62 samples.

Results

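RNA was sequenced from 62 canine meningiomas, and 8 of them form the set described here. They are the tumours in which the genes of chromosome 3 were, on average, less expressed than in the other tumours. Each tumour received a score for each chromosome. Counts were turned into log2 CPM (counts scaled to library size, with TMM scaling of the libraries and a prior count of 2), and each gene whose mean log2 CPM reached 2 was centred on its mean over the 62 tumours. The score is the mean of the centred values over the genes of a chromosome, less the median autosome of the same tumour. A tumour belonged to the set when its chromosome 3 score was below -0.3, which held for 8 of 62 tumours and left 54 for comparison. The tumours were thus chosen by their chromosome 3 expression values, and lower chromosome 3 expression is a property of the set and not a finding about it. With a negative score, the genes of a chromosome lay, on average, lower against their means than the median autosome of the same tumour. Scores are in log2 units.

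All tumours were spontaneous, 1 library per dog, archived in paraffin between 2011 and 2022. By the treatment labels 9 dogs had surgery with radiotherapy (SxRT), 13 had surgery (Sx), 3 had radiotherapy (RT) and 3 had an anti-epileptic drug. A further 7 had a steroid, all but steroid replicate 4 together with an anti-epileptic drug, and 27 were untreated. The set holds 1 of the 9 SxRT tumours, 3 of the 13 Sx tumours and 4 of the 27 untreated tumours, and none of the 13 tumours in the RT, anti-epileptic and steroid groups. Each library is bulk tissue, so fewer cells of a type and less RNA per cell cannot be told apart. Libraries held between 1967061 and 12063982 counts, with a median of 4190135. The file pairs its Ensembl identifiers with no gene names, so tissue markers could not be looked up and genes are named by identifier only, with CanFam3.1 positions.

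Meningiomas arise from the coverings of the brain and are the most common primary brain tumour of dogs. In people, meningiomas often lose whole chromosomes or arms, most often the arm that carries the tumour suppressor NF2, and the more aggressive classes carry more such changes. A chromosome present in fewer copies usually gives less RNA from many of its genes at once, and for that reason the average expression along a chromosome is widely used as an indirect reading of copy number. No DNA was measured in these tumours, so the scores below are expression values only.

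The chromosome 3 scores of the set ran from -0.727 to -0.334, with a median of -0.475. Untreated replicate 21 had the lowest score, -0.727, and Sx replicate 10 was next at -0.721. Untreated replicate 9 had -0.599, Sx replicate 9 had -0.503 and untreated replicate 17 had -0.448. Sx replicate 6 followed at -0.411, SxRT replicate 4 at -0.362 and untreated replicate 1 at -0.334. The nearest tumour outside the threshold was Sx replicate 13 at -0.293, only slightly above the last member. After it came a wider step to -0.159 and -0.0850, and the 54 other tumours had a median of 0.0805 and a highest score of 0.522. Scores computed with the median over genes or with median-of-ratios scaling gave the same 8 tumours. A prior count of 0.5, a minimum mean log2 CPM of 1, a minimum of 4, or a threshold of -0.25 each gave 9 tumours, the 8 and Sx replicate 13. A threshold of -0.35 left 7, without untreated replicate 1.

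**Figure D1:**
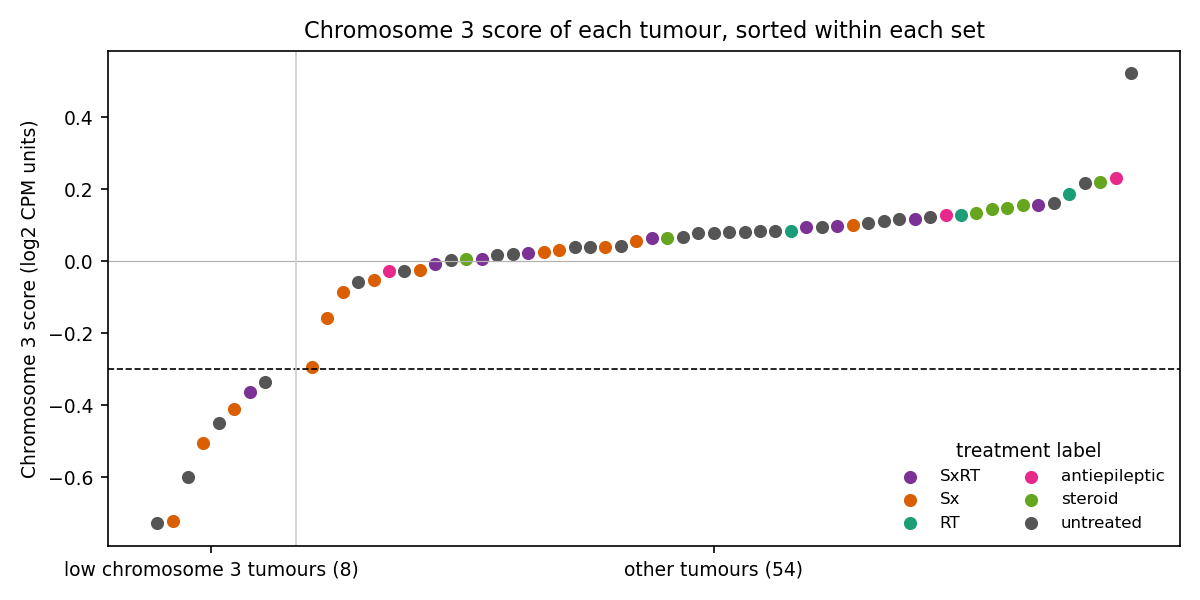
The chromosome 3 score (log2 CPM units) of each tumour, with the 8 low chromosome 3 tumours on the left and the 54 others on the right, sorted within each set; 1 point is 1 tumour, coloured by treatment label, and the dashed line is the threshold of -0.3. The 8 tumours lie between -0.727 and -0.334, Sx replicate 13 lies just above the line at -0.293, and the highest tumour is at 0.522.

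The drop spread over most genes of chromosome 3. The score used 334 of the 910 chromosome 3 genes in the file; the other 576 had a mean log2 CPM below 2. As in the score, the value of each gene was taken less the median autosome of its tumour. Of the 334, 312 (93.4%) had a lower median in the 8 tumours than in the 54 others, against 5292 of 11152 genes (47.5%) of the other autosomes. The median over the 334 genes of the difference between set medians was -0.53 log2 units, with quartiles of -0.81 and -0.31, and over the other autosomal genes it was 0.03. In single tumours the share of the 334 genes below the median of the 54 others ran from 62.9% in Sx replicate 6 to 89.2% in untreated replicate 21, while the same share over the other autosomes ran from 43.1% to 52.3%. Chromosome 3 genes took 1.94% ± 0.212 (SD, n = 8) of the autosomal counts in the low chromosome 3 tumours and 2.72% ± 0.267 (SD, n = 54) in the others. These values chose the tumours and are given without a test.

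Along the chromosome, 78 of the 80 values of 8 tumours in 10 bins of 10 Mb lay below 0, and 60 lay below -0.3. Bin values were likewise taken less the median autosome of the tumour. Untreated replicate 21 and Sx replicate 10 were below -0.3 in each of the 10 bins. Untreated replicate 9 was below it in 9 bins, the exception being bin 8 at -0.184. Sx replicate 9 was below it in 8 bins, and its bin 5 stood at 0.115, above the median of the other tumours. SxRT replicate 4 had bin 2 at 0.0116 and bin 9 at -0.775. In untreated replicate 1 the bins ran from -0.622 to -0.0785, with 5 below -0.3. The SD over the 10 bins was between 0.167 in untreated replicate 21 and 0.264 in Sx replicate 9, and it was 0.195 in untreated replicate 1, the tumour nearest the threshold. The bins also differed in the other tumours. In bin 5 none of the 54 other tumours lay below -0.3, and in bin 9, with 20 genes, 12 of them did.

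**Figure D2:**
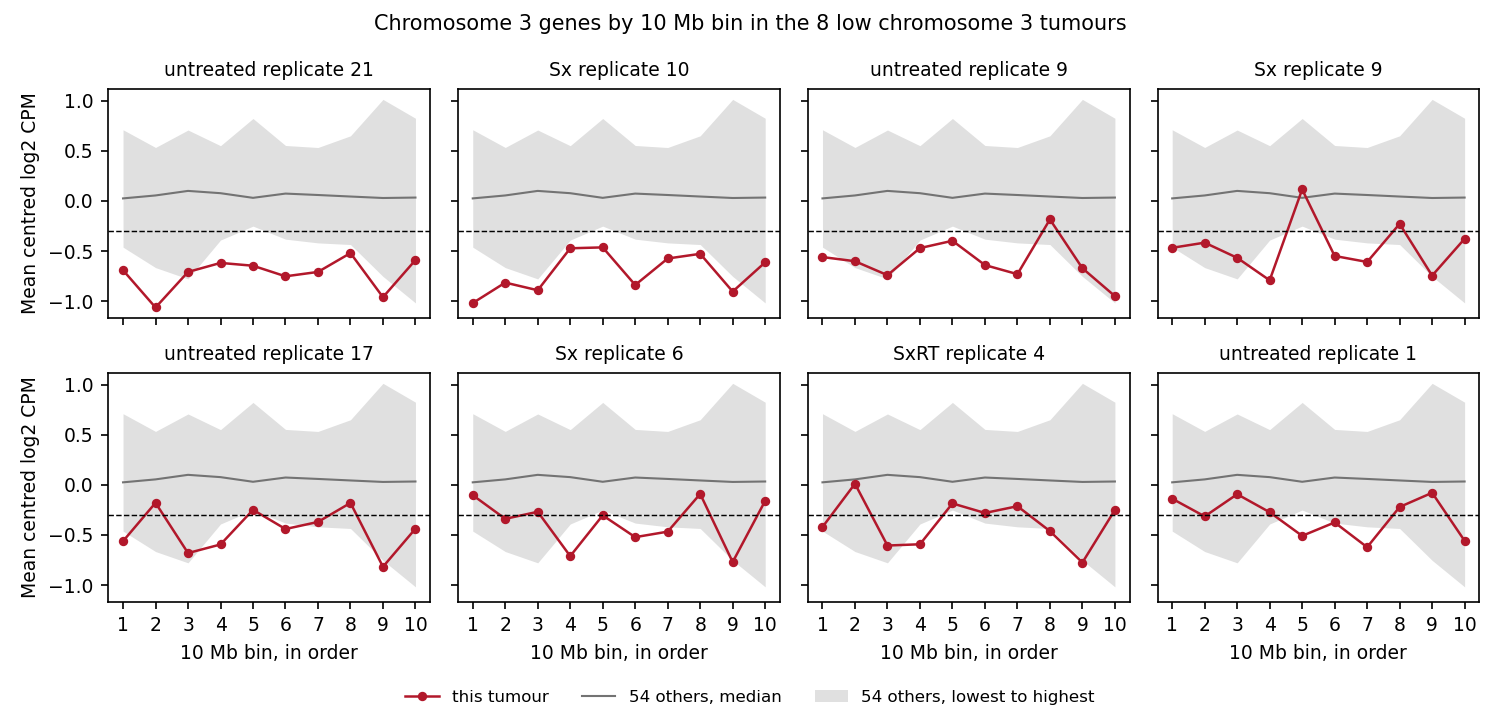
Mean centred log2 CPM of chromosome 3 genes, less the median autosome of the tumour, in 10 bins of 10 Mb in order along the chromosome. Each panel is 1 low chromosome 3 tumour (red), with the median (line) and the lowest to highest value (grey band) of the 54 other tumours. The dashed line is -0.3. Untreated replicate 21 and Sx replicate 10 lie below the line in all 10 bins, and Sx replicate 9 reaches 0.115 in bin 5.

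The low values did not sit in 1 kind of gene. These subsets are parts of the genes that chose the tumours, with values less the median autosome. Their separation was thus largely set in advance and is described without a test. With the 167 less expressed genes alone the 8 tumours had values from -0.827 to -0.132 (median -0.507), and the 54 others from -0.380 to 0.586 (median 0.0458). Here the sets overlapped. With the 167 more expressed genes the 8 tumours ran from -0.675 to -0.304, and the others from -0.246 to 0.459, with no overlap. The genes with shorter exon length gave a median of -0.467 in the 8 tumours and 0.0764 in the others, and those with longer exon length gave -0.448 and 0.0862. For longer exon length the sets overlapped slightly (highest -0.341 in the 8 tumours, lowest -0.351 in the others). The first 167 genes by position gave medians of -0.471 and 0.0683, and the second 167 gave -0.502 and 0.0764. With the first 167 the sets also overlapped (highest -0.275 in the 8 tumours, lowest -0.337 in the others). The 11 genes with 1 exon overlapped most widely, with values from -0.624 to 0.282 in the low chromosome 3 tumours and from -1.34 to 0.807 in the others.

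Single genes of chromosome 3 varied far more than the chromosome as a whole. The largest drop of a median was in ENSCAFG00000009093 (chromosome 3, 27734108 to 27752046), whose log2 CPM had a lowest, median and highest value of -1.16, 1.04 and 3.93 in the low chromosome 3 tumours and of -1.16, 3.97 and 7.13 in the others. Next was ENSCAFG00000013237 (55287460 to 55340571), with a median log2 CPM of 0.59 in the low chromosome 3 tumours and 3.48 in the others, both sets reaching down to -1.16, the value of a gene without a count. The few genes against the trend included ENSCAFG00000016677 (91281077 to 91322803), with median log2 CPM values of 3.89 in the low chromosome 3 tumours and 3.09 in the others. ENSCAFG00000014148 (58188004 to 58226185) had medians of 4.25 in the low chromosome 3 tumours and 3.71 in the others, and Sx replicate 6 at 7.07 was above all of the others. All 4 genes overlapped between the sets. In the model of all genes, edgeR called 6 of 522 chromosome 3 genes lower in the set and 0 higher (adjusted p under 0.05, background 0.0327% called lower over 18370 genes), which the choice of tumours made likely and which supports nothing further.

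Of the dogs' labels, only neuter status differed between the sets beyond the threshold used. Intact dogs made up 4 of 8 in the low chromosome 3 set and 3 of 54 in the rest (odds ratio 17, 2-sided Fisher's exact test, p 0.00370, adjusted p 0.0148 over 4 labels). The 4 intact dogs were untreated replicates 1 and 9, Sx replicate 9 and SxRT replicate 4, which come from 3 treatment groups, and they are 4 of the 7 intact dogs in the series. Males make up 3 of these 4 dogs and 3 of the 3 other intact dogs. With the threshold at -0.35, which leaves out untreated replicate 1, the odds ratio was 9.56 and the adjusted p of the exact test 0.105. Surgery was recorded for 4 of 8 dogs in the set and 18 of 54 others (exact test, adjusted p 0.584). Females made up 3 of 8 in the set and 28 of 54 of the others (exact test, adjusted p 0.707), and sample names that begin with S were found in 4 of 8 and in 17 of 54 (exact test, adjusted p 0.584). By breed the 8 dogs were 2 of 7 Labrador Retrievers, 2 of 5 Golden Retrievers, 1 of 7 Boxers, 1 of 2 Shih Tzus, the 1 Cardigan Welsh Corgi and the 1 Jack Russell Terrier, too few for a test. The survival label, whose unit is not stated, had a lowest, median and highest value of 37, 236.5 and 768 in the 4 surgical dogs of the set, 1 of them lost to follow-up. In the 18 other surgical dogs it had 5, 341.5 and 1523, with 13 lost to follow-up, and no test was made.

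None of 5 library measures differed between the sets past an adjusted p of 0.05 (exact permutation tests, 2-sided, adjusted over 5). Total counts were 3625195 ± 802172 (SD, n = 8) in the low chromosome 3 tumours and 4741752 ± 1997518 (SD, n = 54) in the others (exact permutation adjusted p 0.281). Mitochondrial genes took 9.48% ± 6.27 of the counts in the set and 14.2% ± 7.93 in the others (exact permutation adjusted p 0.281). The first principal component of genes off chromosome 3 averaged -25.7 ± 29 in the set and 3.8 ± 58.4 in the others (exact permutation adjusted p 0.281), with 7 of 8 tumours below the median of the others. The part of depth, mitochondrial share and this component in the results below was not tested except where a fit with the component is named. No library of the set was a copy of another: the chi-square per gene was 25.9 for the closest of the 28 pairs.

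Several other autosomes moved with chromosome 3, and chromosome 18 moved most. Of 38 other chromosomes (37 autosomes and X), 8 differed between the low chromosome 3 tumours and the rest in an exact 2-sided permutation test at an adjusted p under 0.05 (21.1% of those tested). Chromosomes 18, 20, 27, 5 and 15 were lower (5 of 38, 13.2%), and chromosomes 22, 32 and 35 were higher (3 of 38, 7.89%). The score of chromosome 18 had a lowest, median and highest value of -0.638, -0.280 and 0.0842 in the low chromosome 3 tumours, against -0.239, 0.0330 and 0.287 in the others. Its mean was -0.293 ± 0.293 (SD, n = 8) in the set and 0.0398 ± 0.125 (SD, n = 54) in the others, a difference of -0.333 (exact permutation adjusted p 0.000708). Below -0.3 lay 4 of the 8 tumours (Sx replicates 6, 9 and 10 and untreated replicate 9) and 0 of the 54 others. The call held without each of the 8 tumours in turn, with differences between -0.387 and -0.284. An exact rank sum test, which gives the size of a drop less weight, gave an adjusted p of 0.0452 for chromosome 18 and for chromosome 22, and called no other chromosome.

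For each of the other 7 calls there was at least 1 tumour of the set whose removal ended it. Chromosome 20 had scores of -0.721 in untreated replicate 9 and -0.715 in Sx replicate 9, and between -0.268 and 0.0275 in the other 6 tumours of the set. The others ran from -0.606 to 0.441, with a median of 0.0305, and the means differed by -0.258 (exact permutation adjusted p 0.0381). All 8 tumours of the set lay below that median. Chromosome 5 was also lowest in untreated replicate 9 and Sx replicate 9, at -0.664 and -0.658. For chromosome 5, 6 of 8 tumours lay below the median of the others, and the means differed by -0.204 (exact permutation adjusted p 0.0389). Without either tumour the call of both chromosomes was lost. Without untreated replicate 9, chromosome 20 differed by -0.188 (exact permutation adjusted p 0.147) and chromosome 5 by -0.135 (0.150), and without Sx replicate 9 by -0.188 (0.105) and -0.136 (0.132). The score of chromosome 27 was below -0.3 in 4 of 8 tumours (untreated replicates 9, 17 and 21 and Sx replicate 10) and in 3 of 54 others, with means of -0.222 ± 0.364 (SD, n = 8) and 0.0293 ± 0.180 (SD, n = 54) and an exact permutation adjusted p of 0.0381. Leaving out any of those 4 tumours ended that call, with differences between -0.227 and -0.190 and exact permutation adjusted p from 0.0615 to 0.147. Chromosome 15 was lower by 0.155 on the log2 scale, with an exact permutation adjusted p of 0.0496.

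Of the 3 chromosomes that were higher in the set, chromosome 22 scored between 0.00592 and 0.466 in the low chromosome 3 tumours, all 8 above the median of the others (-0.0345), and the others ran from -0.291 to 0.530. The means differed by 0.166 (exact permutation adjusted p 0.0381), and the call was lost without untreated replicate 9 (0.165, exact permutation adjusted p 0.127), SxRT replicate 4 (0.120, 0.126) or Sx replicate 10 (0.128, 0.0883). Chromosome 32 was higher by 0.187 (exact permutation adjusted p 0.0496) and chromosome 35 by 0.134 (exact permutation adjusted p 0.0438). At a threshold of -0.25 neither was called (exact permutation adjusted p 0.120 and 0.0654). Chromosome 32 also lost its call at a minimum mean log2 CPM of 4 (exact permutation adjusted p 0.156). The same held for chromosome 35 at a threshold of -0.35 (exact permutation adjusted p 0.141). With each of the 8 tumours left out in turn, chromosome 15 kept its call in 3 of 8 fits, with differences from -0.214 to -0.0914. Chromosome 32 kept its call in 2 of 8 (0.132 to 0.221), as did chromosome 35 (0.108 to 0.179). Each score is relative to the median autosome of its own tumour.

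**Figure D3:**
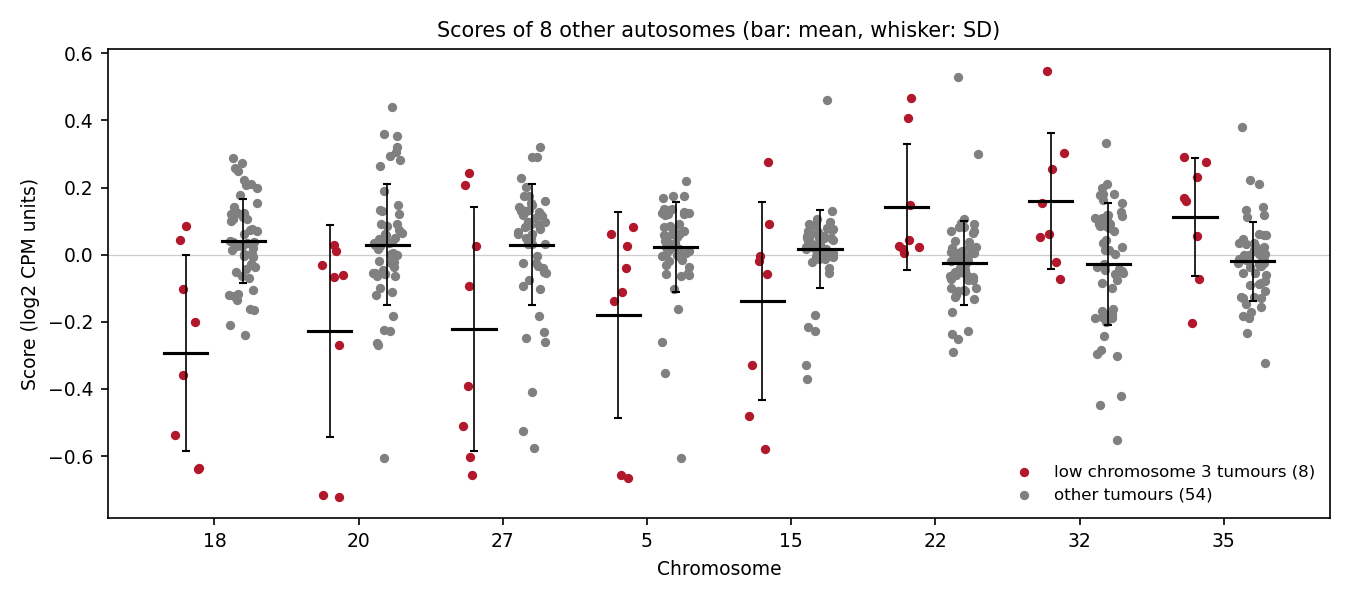
Scores (log2 CPM units) of the 8 other autosomes that passed an adjusted p of 0.05, with the 8 low chromosome 3 tumours (red, left of each pair) and the 54 others (grey); bars are means and whiskers are SD. For chromosome 18 the set runs from -0.638 to 0.0842 and the others from -0.239 to 0.287, while chromosomes 20 and 5 each show 2 tumours far below the rest of the set.

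Treatment group was looked at next, since the set holds 4 surgical and 4 untreated tumours. The comparison within untreated tumours was planned, and those within surgical tumours and within neutered dogs were chosen after seeing the data. Within the 22 surgical tumours (4 of the set, 18 others) chromosome 18 averaged -0.458 in the set and 0.117 in the others, a difference of -0.575 (exact permutation adjusted p 0.0104). In the same comparison chromosome 20 differed by -0.399 (exact permutation adjusted p 0.0208), chromosome 32 by 0.406 (0.0208), chromosome 14 by 0.318 (0.0208) and chromosome 22 by 0.305 (0.0260), and 5 chromosomes were called in all. Within the 27 untreated tumours (4 of the set, 23 others) no chromosome passed. Chromosome 18 differed there by -0.120 (exact permutation adjusted p 0.254), and chromosomes 27 (-0.397) and 35 (0.190) had the smallest adjusted p, 0.0790 each. The difference between these comparisons was itself not tested. Among neutered dogs, 4 of the set and 51 others, only chromosome 27 passed, with a difference of -0.487 (exact permutation adjusted p 0.00201). Chromosome 18 differed there by -0.249 (exact permutation adjusted p 0.0809). Chromosomes 20 and 5, whose lowest tumours in the set were both from intact dogs, differed by -0.0377 and -0.0185, and with 4 intact dogs among 8, membership of the set and neuter status cannot be fully told apart.

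Each tumour of the set had its own list of other shifted autosomes. With 0.3 in either direction as the limit, untreated replicate 21 was low on chromosomes 6, 17, 27, 33, 34 and 36 and high on none, with chromosome 36 at -0.902, chromosome 6 at -0.786 and chromosome 27 at -0.656. Sx replicate 10 was low on 2, chromosome 18 at -0.635 and chromosome 27 at -0.604, and high on 12, of which chromosome 16 (0.639) and chromosome 19 (0.603) stood highest. Untreated replicate 9 was low on 5, 10, 15, 17, 18, 20 and 27 and high on 23. Sx replicate 9 was low on 5, 13, 15, 17, 18 and 20. Untreated replicate 17 was low on 13, 17 and 27. Sx replicate 6 was low on 4 and 18 and high on 9, 32 and 37. SxRT replicate 4 was low on 10, 12, 15, 33, 37 and 38 and high on 22. Untreated replicate 1, the tumour nearest the threshold, had no other autosome beyond the limit.

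2 tumours had much of their list in common. Untreated replicate 9 and Sx replicate 9 shared chromosomes 5, 15, 17, 18 and 20 as low, 5 of the 7 low autosomes of untreated replicate 9 and 5 of the 6 of Sx replicate 9. This combination was picked from these 2 tumours. In the 54 other tumours 0 had these 5 low together, but chromosome 18 alone was low in 0 of them, which fixed that count. Both dogs were intact, 1 male and 1 female, and of different breeds. Chromosomes 17 and 27 were low together in 3 tumours of the set and 3 of the 54 others. Chromosome 17 alone was low in 4 of 8 tumours of the set and 11 of 54 others, and its means did not differ past the threshold (-0.174, exact permutation adjusted p 0.229).

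The shifted autosomes of the set were shifted along most of their length. Over the 32 pairs of a tumour and a low autosome other than 3, 186 of 189 bins of 10 Mb lay below 0 and 164 (86.8%) lay below -0.3, a larger share than the 75% for chromosome 3 itself. In 16 of these 32 pairs each bin lay below -0.3. Chromosome 20 in untreated replicate 9 was among the most even, with 6 bins between -0.823 and -0.641, and chromosome 5 in the same tumour had 9 bins between -0.785 and -0.544. Over the 17 pairs with a high autosome, 97 of 101 bins lay above 0 and 67 (66.3%) above 0.3, and no pair had each bin above it. These bins belong to autosomes picked for their score, so the shares describe how even the shifts were and are no test.

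**Figure D4:**
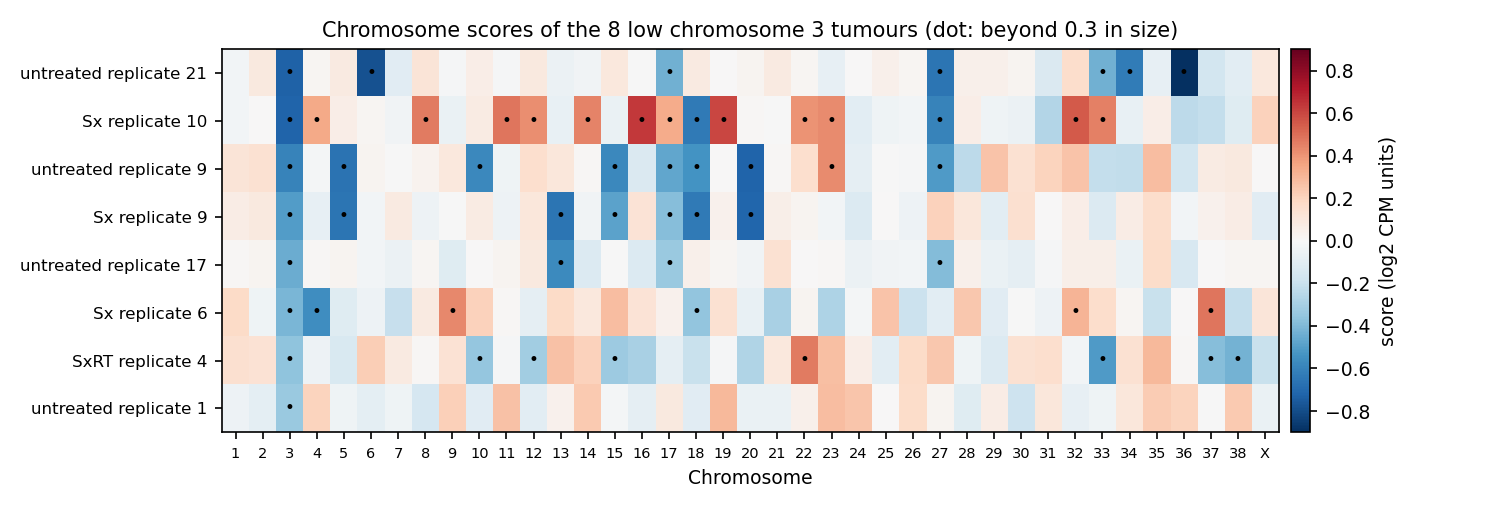
Chromosome scores (colour, log2 CPM units, blue low and red high) of the 8 low chromosome 3 tumours, ordered from the lowest chromosome 3 score at the top, over 38 autosomes and X; a dot marks a score beyond 0.3 in size. Untreated replicate 9 and Sx replicate 9 share 5 low autosomes besides 3, Sx replicate 10 has 12 high ones, and untreated replicate 1 has no mark off chromosome 3.

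Other autosomes were beyond the limit more often in the set. Besides chromosome 3, the number of autosomes beyond 0.3 in either direction was 6.12 ± 4.05 (SD, n = 8) in the low chromosome 3 tumours and 2.31 ± 3.62 (SD, n = 54) in the others, a difference of 3.81 (exact permutation test, 2-sided, p 0.0116). The lowest, median and highest numbers were 0, 6 and 14 in the set and 0, 1 and 15 in the others, so the ranges overlapped almost wholly. The set was itself chosen by a score beyond 0.3 in size. That choice could favour tumours with widely spread scores, which was not tested. At least 5 such autosomes were found in 6 of 8 tumours of the set and 8 of 54 others, and none was found in 1 of 8 and 19 of 54. Low autosomes numbered 4.0 ± 2.56 in the set and 1.26 ± 2.29 in the others (exact permutation p 0.00680), and high ones 2.12 ± 4.12 and 1.06 ± 1.92 (exact permutation p 0.210). Without Sx replicate 10, with 14 the tumour of the set with most shifted autosomes, the difference was 2.69 (exact permutation p 0.0533). It was 4.44 (exact permutation p 0.0971) within surgical tumours and 2.55 (exact permutation p 0.128) within untreated tumours, and 4.78 (exact permutation p 0.0259) among neutered dogs. The surgical and neutered comparisons were again chosen after seeing the data.

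Few single genes off chromosome 3 were called. The same fit also missed many changes in simulated counts, where it called 33% of 100 genes changed 2-fold and 59% of 100 genes changed 4-fold. With treatment group, sex and neuter status in the model, edgeR's quasi-likelihood test called 11 of 17848 genes off chromosome 3 higher in the low chromosome 3 tumours and 0 lower (adjusted p under 0.05 over all 18370 genes tested, of which 0.0599% were called higher, 0.0327% lower and 0.0925% either way). At an unadjusted p under 0.05 there were 695 higher and 607 lower genes off chromosome 3. DESeq2 with the same design called 46 higher and 53 lower, and limma voom with quality weights 13 and 4. In 7 of the 11 called genes Sx replicate 6 had the highest level of the set, in 3 untreated replicate 21 and in 1 Sx replicate 10. Without Sx replicate 6 only 1 of the 11 was still called. None of the 11 lay above the median of the others in all 8 tumours. Of the 11, 3 had a mean log2 CPM below 1, and 3 lie on chromosome 25.

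The called gene with the largest change among those whose mean log2 CPM reached 1 and whose medians differed by 0.5 or more was ENSCAFG00000000001 (chromosome 1, 252103 to 322718). Its log2 CPM had a lowest, median and highest value of 4.05, 4.86 and 11.7 in the low chromosome 3 tumours and of 2.14, 4.18 and 8.56 in the others. Only Sx replicate 6, at 11.7, was above all of the others, and the next highest tumour of the set, SxRT replicate 4, stood at 5.67. The fitted log2 fold change was 4.06 (SE 0.709, edgeR adjusted p 0.00723), with 6 of 8 tumours above the median of the others. Without Sx replicate 6 it was 0.53 (edgeR adjusted p 1.0), and within untreated tumours it was -0.12 (edgeR adjusted p 1.0). This call therefore rests on 1 tumour, although 18 of 22 alternative fits, most of which hold that tumour, kept it (adjusted p from 3.14e-08 to 1.0 over edgeR, DESeq2 and limma fits). Second came ENSCAFG00000006073 (chromosome 25, 3167359 to 3208411), with a lowest, median and highest log2 CPM of 4.95, 8.78 and 13.3 in the set and of 2.10, 7.10 and 10.8 in the others. Untreated replicate 21 (13.3), untreated replicate 17 (11.99) and Sx replicate 6 (11.5) were above all of the others, while untreated replicate 9 and Sx replicate 9, at 4.95 and 5.10, were below their median. Its log2 fold change was 3.41 (SE 0.724, edgeR adjusted p 0.0254), and it lost its call without untreated replicate 21 (1.95, edgeR adjusted p 0.427), untreated replicate 17 (3.39, 0.0532) or Sx replicate 6 (3.30, 0.116). Over 22 alternative edgeR, DESeq2 and limma fits its log2 fold change ran from 1.95 to 4.63 and its adjusted p from 0.000716 to 0.427.

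No lower gene passed, so the pair with the smallest p is given as not called. ENSCAFG00000009547 (chromosome 18, 45182566 to 45187268) had a lowest, median and highest log2 CPM of 4.55, 5.47 and 6.47 in the low chromosome 3 tumours and of 4.47, 6.85 and 9.09 in the others. All 8 tumours lay below the median of the others, with a log2 fold change of -1.44 (SE 0.345, edgeR adjusted p 0.0633). ENSCAFG00000012408 (chromosome 2, 73497473 to 73534378) had 3.65, 4.19 and 5.65 in the set and 3.57, 5.20 and 6.95 in the others, with 7 of 8 tumours below the median of the others and a log2 fold change of -1.05 (SE 0.265, edgeR adjusted p 0.0872). Without untreated replicate 17, the tumour at 5.65, it was -1.40 (edgeR adjusted p 0.0165). Each of this pair was lower in all of 22 alternative edgeR, DESeq2 and limma fits and called in 5, with adjusted p from 0.00433 to 1.0 for ENSCAFG00000009547 and from 0.0109 to 1.0 for ENSCAFG00000012408.

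Across genes, chromosomes 18 and 32 stood farthest from the share over all genes, chromosome 3 left aside. At an unadjusted p under 0.05, edgeR found 84 of 543 chromosome 18 genes (15.5%) lower in the set and 7 higher, where 4.16% of all genes tested were lower and 3.79% higher. The 4.16% includes 157 genes of chromosome 3. Off chromosome 3, 607 of 17848 genes were lower. Of the 543 genes, 78.3% had a negative log2 fold change, with a median of -0.31, against 50.5% and a median of -0.00467 over all genes off chromosome 3. Chromosome 32 had the largest share of higher genes, 32 of 219 (14.6%), with a median log2 fold change of 0.30. Chromosome 20 had 49 of 818 genes (5.99%) lower and chromosome 27 had 18 of 448 (4.02%), the second near the share over all genes although 69.4% of its genes had a negative fold change. Chromosome 5, called by its score, had 41 of 948 genes (4.32%) lower, also near that share. These genes share their chromosome and libraries and are not independent of each other.

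**Figure D5:**
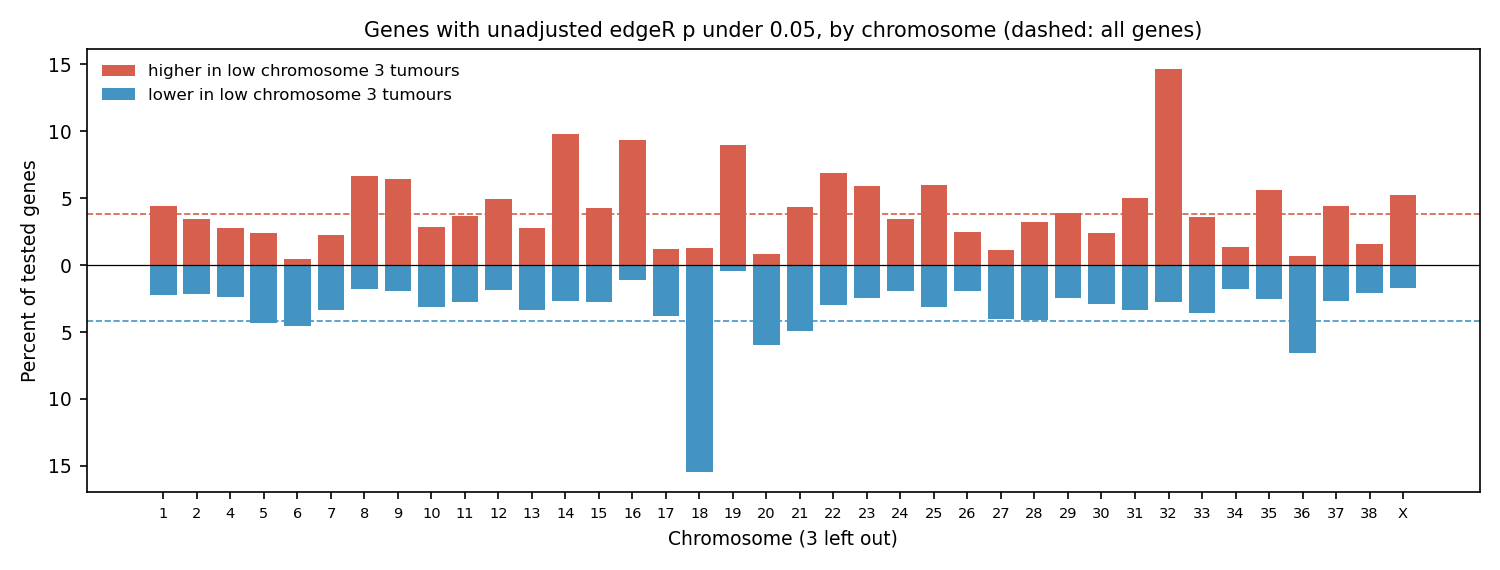
Percent of the genes tested on each chromosome (3 left out) with an unadjusted edgeR p under 0.05 that were higher (upward bars) or lower (downward bars) in the low chromosome 3 tumours. Dashed lines mark 3.79% and 4.16%, the shares over all genes tested, chromosome 3 included. Chromosome 18 has 15.5% lower genes and chromosome 32 has 14.6% higher genes.

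In the 54 other tumours, which the threshold did not pick, chromosome 18 did not tend to fall together with chromosome 3. Across these tumours chromosome 3 had r -0.210 and rho -0.380 with chromosome 18 (permutation tests, adjusted p 0.230 and 0.0176 over 38 relations). That sign is opposite to the joint drop in the set. Without the 2 tumours farthest from the median chromosome 3 score, r was -0.384. Sx replicate 13, with the lowest chromosome 3 score of the 54 (-0.293), nonetheless had their lowest chromosome 18 score (-0.239). With the threshold at -0.25, which adds that tumour to the set, chromosome 18 differed by -0.332 (exact permutation adjusted p 0.000143). For chromosome 20 r was -0.333 and rho -0.268 (permutation tests, adjusted p 0.0576 and 0.0995), for chromosome 5 r was 0.0921 and rho -0.131 (0.564 and 0.437), and for chromosome 27 r was 0.0142 and rho -0.106 (0.953 and 0.525). Chromosomes 22 and 32, higher in the set, also had the opposite sign here. Chromosome 22 had r 0.124 and rho 0.388 (permutation tests, adjusted p 0.465 and 0.0176). Chromosome 32 had r 0.272 and rho 0.371 (0.120 and 0.0210). Chromosomes 35 and 15 instead had the direction seen in the set. For chromosome 15, lower in the set, r was 0.110 and rho 0.0899 (permutation tests, adjusted p 0.491 and 0.597). Its r was 0.338 without the 2 farthest tumours. Chromosome 35, higher in the set, is given below. Of the 38 relations, 10 had r past an adjusted p of 0.05. Chromosome 11 had r -0.465 and rho -0.570 (permutation tests, adjusted p 0.00737 and 0.00038), and r was -0.726 without the 2 tumours farthest from the median chromosome 3 score. Chromosome 24 had r -0.401 and rho -0.559 (0.0257 and 0.00038), with r -0.419 without those 2, and chromosome 14 had r 0.425 and rho 0.506 (0.00811 and 0.00142), with r 0.411. Chromosome 26, with the smallest p, had r -0.580 and rho -0.313 (0.00152 and 0.0555), with r -0.363 without those 2. Chromosome 30 had r -0.550 and rho -0.355 (0.00390 and 0.0246), with r -0.4998, and chromosome 36 had r 0.360 and rho 0.485 (0.0264 and 0.00209), with r 0.552. Chromosome 35 had r -0.452 and rho -0.181 (0.00814 and 0.286), with r -0.420. For chromosomes 6 and X the relation rested on those 2 tumours, with r of -0.584 and 0.547 over all 54 and of -0.180 and 0.194 without them, and for chromosome 25 r of -0.397 turned to -0.0623. For chromosome 37 it went the other way, with r 0.00294 over all 54 and 0.677 without those 2 (rho 0.477, permutation test, adjusted p 0.0019). All scores of a tumour share its library and are taken relative to the same median autosome.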

How the data were processed

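Total RNA of 62 paraffin-archived canine meningiomas was sequenced as 150 nt Illumina pairs, per the labels' protocols. The deposited values are raw counts for each gene, made by the authors with featureCounts 2.0.4, per the file headers. The annotation was Ensembl release 100, exon features, on CanFam3.1, and strand was ignored. Overlapping genes on opposite strands, and near-identical copies, are therefore uncertain. The header shows the paired option without fragment counting, so a pair could add 2 counts, and totals overstate the number of molecules. Of the low counts above 0, the even share per library ran from 79.3% to 95.3% in the 54 other tumours and from 86.0% to 93.4% in the set. STAR, featureCounts and DESeq2 are named in the submitters' processing notes, with no other versions given in the sources used here. The file has 30951 genes, and 0 columns belong to no sample of the series. The name table at hand matched 0 identifiers, so marker and pathway lists and roles of genes were not analysed here.

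The 8 tumours, the comparisons and the lists of chromosomes and measures were chosen with earlier results of these data known. Treatment groups come from the labels, and replicate numbers follow accession order and pair nothing. All 62 tumours entered 1 edgeR 4.0.16 quasi-likelihood fit (R 4.3.3) of set membership, treatment group, sex and neuter status. After filterByExpr on the treatment groups 18370 genes remained; libraries were scaled by TMM, and Benjamini-Hochberg adjustment covered all genes tested. Genes named were, per direction, the 2 with the largest log2 fold change among those called whose mean log2 CPM reached 1 and whose set medians differed by 0.5 or more, or, with none, the smallest p; on chromosome 3, the 2 largest drops and rises of the median.

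Chromosome scores, numbers of shifted autosomes and library measures were compared by exact permutation of the 8 labels, counting all choices of 8 tumours on scores rounded to 0.001, and labels by Fisher's exact test. Correlations in the other tumours used 100000 permutations. Bins of 10 Mb needed at least 10 genes. P-values measure the spread between dogs, 1 library each. Alternatives were DESeq2 1.42.0, limma 3.58.1, other scalings, filters, covariates and thresholds, strata of treatment, name and neuter status, and leaving out each tumour. The edgeR fit was tested on counts simulated from the real means, library sizes and dispersions, where 7 unchanged genes were called (7.07% of the calls). Python 3.11.15 with numpy 2.4.6, scipy 1.17.1 and pandas 2.3.3 did the rest.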

Additional observations from a re-analysis of the deposited data

Results flagged for a closer look

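Among the 8 low chromosome 3 tumours, 53 measures were looked at for a tumour far from the 7 others (Dixon's test at 95%, which flags about 1 in 20 groups by chance), and 13 had one. Sx replicate 6 stood apart with its chromosome 4 score of -0.557, its chromosome 21 score of -0.288 and its chromosome 25 score of 0.256. The same tumour stood apart with log2 CPM values of 11.7 for ENSCAFG00000000001 and 7.07 for ENSCAFG00000014148. Untreated replicate 21 stood apart with chromosome 6 at -0.786, chromosome 34 at -0.627 and chromosome 36 at -0.902. Sx replicate 10 stood apart with chromosome 8 at 0.464 and chromosome 16 at 0.639. SxRT replicate 4 had 17569 genes with a count, more than the 7 others. Untreated replicate 1 lay at 37.5 on the first principal component, above the 7 others, and untreated replicate 17 had a log2 CPM of 5.65 for ENSCAFG00000012408.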

How the results depend on the processing

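No paired analysis was possible because the labels give no replicate numbers that groups share. Genes called off chromosome 3 were 11 higher and 0 lower. With no filter they were 35 and 1, with DESeq2 46 and 53, with no covariates 122 and 30, with the first principal component 48 and 12, and without the neuter covariate (chosen after seeing the data) 57 and 13. They were 6 and 1 at a threshold of -0.25, 23 and 2 at -0.35, 17 and 2 in neutered dogs (also chosen after seeing the data), 0 and 0 in untreated tumours (388 at an unadjusted edgeR p under 0.05) and 1 and 0 in N-named ones. Limma voom gave 4 lower. Leaving out each tumour of the set gave 1 to 24 higher and 0 to 3 lower, with 1 higher without Sx replicate 6, 20 without untreated replicate 21, 24 without Sx replicate 10 and 21 without untreated replicate 1. By score 8 chromosomes were called in the main test. Rank sums called 2, and the test called 0 in untreated tumours and 1 in neutered dogs. In surgical tumours it called 5, of which chromosome 14 was not among the 8. For the scores and the numbers of shifted autosomes, the surgical and neutered strata were chosen after seeing the data. With each tumour left out 1 to 8 were called, not always from the same 8: 1 without untreated replicate 9, 3 without Sx replicate 9 or 10, and 4 without untreated replicate 17. Chromosome 15 turned to 0.0603 in neutered dogs. The difference in shifted autosomes, 3.81, was 2.55 in untreated and 4.44 in surgical tumours, neither past the threshold, and 2.69 to 4.69 with each tumour left out. The odds ratio for intact dogs was 9.56 at -0.35. The difference in the even share of low counts, 0.711 points in the main test, turned to -0.529 points at -0.25. ENSCAFG00000000001 turned to -0.12 in untreated and -0.14 in N-named tumours. The causes were not tested. The common dispersion was 0.622, and no stratum of treatment, name or neuter status held more than 4 tumours of the set.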
